A study of Mus musculus with 20 samples.

Results

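MiR-335 is a microRNA (miRNA) made from a hairpin inside Mest, an imprinted gene that is expressed from the paternal chromosome. Each hairpin can release a 5p strand and a 3p strand, and both names, mmu-miR-335-5p and mmu-miR-335-3p (the prefix marks mouse and is left off from here), were described here out of 1915 mature miRNA names in the deposited table. Of these names, 1191 had at least 1 read in the 20 serum libraries, and both strands passed the filter on low counts that left 360 names for testing. The pair was picked because its level was lower in dwarf serum at both ages, so the dwarf against normal values are given as a description, with no test. That choice held for the 3p strand only, since the 5p strand was on average higher in dwarf than in normal serum at both ages.

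Serum small RNA came from female mice of 4 groups with 5 libraries each, namely Ames dwarf mice at 21 to 22 months (old dwarf) and at 5 to 6 months (young dwarf), and normal mice at 21 to 22 months (old normal) and at 5 to 6 months (young normal). All groups carry the same strain label, Ames dwarf on a mixed genetic background. Ames dwarf mice have a pituitary that makes almost no growth hormone, prolactin or thyrotropin, stay small and live long. The labels do not say whether the libraries came from separate mice, so the p-values measure the spread between these libraries, which may be technical. Serum miRNA is shed by many tissues, and fewer releasing cells and less miRNA released per cell cannot be told apart.

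A mature miRNA guides a silencing complex to messenger RNAs that match its seed, bases 2 to 8 from the 5′ end. One strand of a hairpin is usually loaded and kept while the other is degraded, so the balance of 5p and 3p reads is a property of the hairpin in a given tissue. MiR-335 is best known for restraining SOX4 and tenascin C in human breast cancer cells and for its expression, with Mest, in mesenchymal cells and in enlarging mouse adipose tissue. The sequences of the strands are given because the results turn on their different behaviour. Capitals mark the seed in each mature strand and both strands in the hairpin (RefSeq, GRCm38.p6, plus strand).
miR-335-5p: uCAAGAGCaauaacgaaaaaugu
miR-335-3p: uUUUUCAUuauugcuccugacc
mir-335 hairpin: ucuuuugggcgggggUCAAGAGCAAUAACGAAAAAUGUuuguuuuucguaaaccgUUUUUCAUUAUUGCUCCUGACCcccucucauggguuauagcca

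The strands have different seeds, and no other name of the table with a RefSeq mature sequence shared the seed of either. MiR-335-5p has 23 bases (chromosome 6, 30741314 to 30741336) and miR-335-3p has 22 bases (30741354 to 30741375), with 17 bases between them. The hairpin (30741299 to 30741396) lies in an intron of Mest (30740825 to 30742140, GENCODE M21), on the strand of the gene, 474 bases after the exon before it and 744 bases before the next exon. In the authors' deposited report on all libraries together, the hairpin had 2612 reads, of which 1980 fell on the 5p strand, 632 on the 3p strand and 0 on the loop. The consensus 3p sequence of those reads equalled the RefSeq strand, while the consensus 5p sequence, ucaagagcaauaacgaaaaaug, was 1 base shorter at its 3′ end.

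Libraries held 1343137 to 4710263 miRNA reads with 1 row per name, and levels are given as CPM, counts scaled to the same library size with TMM factors (the trimmed mean of M-values). Both strands were of middling abundance. By mean level among the 360 tested names, miR-335-5p ranked 177 in old dwarf, 151 in young dwarf, 200 in old normal and 165 in young normal serum, and miR-335-3p ranked 286, 294, 205 and 208 in the same order. Red-cell miR-486a-5p, which shares its reads with miR-486b-5p, was the main component of all groups, at 314000 CPM in old dwarf, 193000 in young dwarf, 392000 in old normal and 261000 in young normal serum.

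MiR-335-3p (mmu-miR-335-3p) was the strand that was low in dwarf serum. In replicates 1 to 5, it stood at 9.15, 6.81, 3.94, 8.19 and 4.47 CPM in old dwarf serum, against 10.6, 17.0, 17.9, 30.5 and 25.4 CPM in old normal serum. Young dwarf serum held 5.69, 6.10, 7.39, 3.06 and 7.40 CPM, against 46.6, 11.7, 8.31, 26.5 and 10.6 CPM in young normal serum. At either age every dwarf library lay below every normal library of that age. In young mice the gap was narrow, with the highest dwarf library at 7.40 CPM and the lowest normal library at 8.31 CPM. The young normal libraries were themselves spread, with replicates 1 and 4 well above the other 3.

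The mean of miR-335-3p was 6.51 ± 2.27 CPM in old dwarf serum, against 20.3 ± 7.77 CPM in old normal serum (SD, n = 5 each). It was 5.93 ± 1.78 CPM in young dwarf serum, against 20.7 ± 16.1 CPM in young normal serum. The fitted log2 difference, dwarf minus normal, was -1.64 ± 0.45 (SE) in old and -1.79 ± 0.45 in young mice, or 0.321 and 0.289 times the normal level. The young value was -1.28 without young normal replicate 1. Because this contrast chose the strand, it is not tested. For scale, 17 of the 360 tested names (4.72%) were lower in old dwarf than in old normal serum with no overlap of CPM, and 4 (1.11%) in the young comparison. Reads behind the dwarf values were few, 7 to 20 per library, and 7 reads have an exact 95% Poisson interval of 2.81 to 14.4 reads, which covers counting error only.

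**Figure D1:**
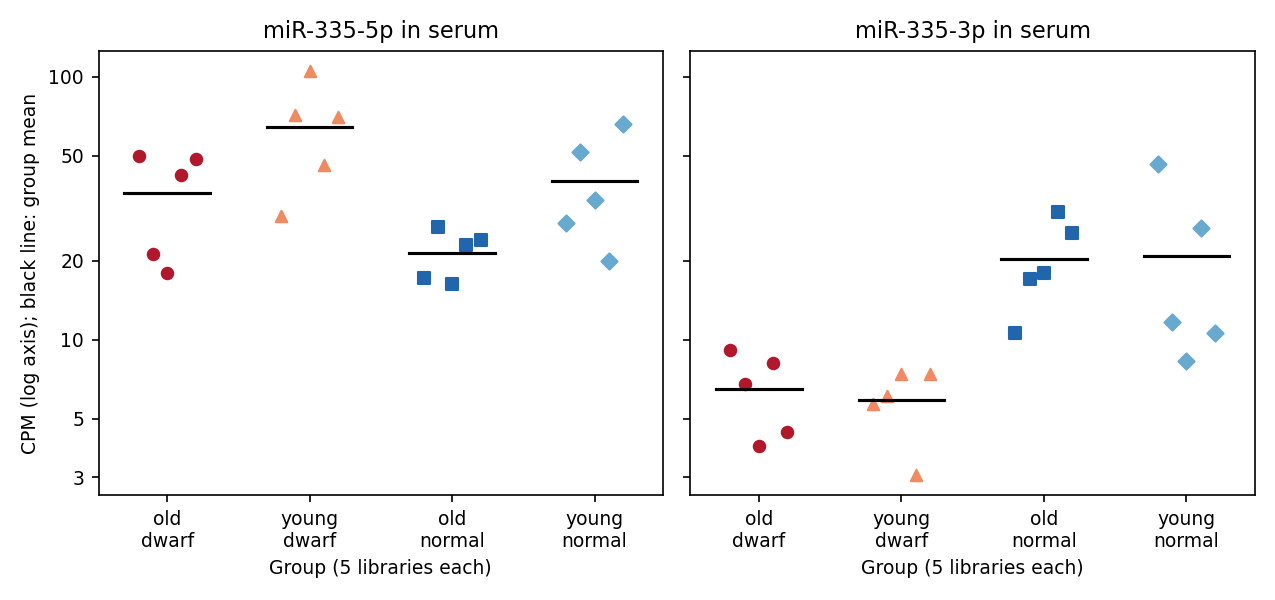
Level of miR-335-5p (left) and miR-335-3p (right) in CPM on a log axis for each of 20 serum libraries, with points for libraries and black lines for group means. The 3p strand lies at 3.06 to 9.15 CPM in all dwarf libraries and at 8.31 to 46.6 CPM in normal libraries, while the 5p strand reaches its highest value, 105 CPM, in a young dwarf library.

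MiR-335-5p (mmu-miR-335-5p) did not share this pattern. Old dwarf replicates 1 to 5 held 50.1, 21.1, 18, 42.3 and 48.7 CPM, against 17.1, 26.9, 16.3, 22.9 and 24.0 CPM in old normal serum. In young dwarf serum the values were 29.4, 71.2, 105, 46.0 and 70.1 CPM, against 27.7, 51.9, 33.9, 20 and 66.3 CPM in young normal serum. Dwarf and normal libraries overlapped at both ages. Old dwarf replicates 2 and 3 stood within the old normal range, and the other 3 old dwarf libraries stood above it.

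The means of miR-335-5p were 36 ± 15.3 CPM in old dwarf serum, against 21.4 ± 4.57 CPM in old normal serum, and 64.4 ± 28.8 CPM in young dwarf serum, against 39.9 ± 18.9 CPM in young normal serum (SD, n = 5 each). The fitted log2 difference, dwarf minus normal, was 0.75 ± 0.39 (SE) in old mice and is not tested. In young mice it was 0.69 ± 0.38, and 0.41 without young dwarf replicate 3. The medians of all tested names were -0.06 and -0.04 in these comparisons. Over the group means the order was young dwarf, young normal, old dwarf and old normal for the 5p strand, with SDs that overlap between each pair of neighbours. For the 3p strand the old and young normal means lay close together and so did the old and young dwarf means.

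With both strands added, the means of the genotypes lay within 1 SD of each other at both ages. The sum was 42.6 ± 16.5 CPM in old dwarf serum, against 41.7 ± 10.7 CPM in old normal serum, and 70.3 ± 30 CPM in young dwarf serum, against 60.7 ± 15.8 CPM in young normal serum. How the reads were divided between the strands was measured within each library as the log2 ratio of 5p to 3p reads, each plus 1. This ratio needs no scaling by library size, though the added 1 draws it towards 0 more where reads are few. A value of 0 means equal reads. Old dwarf replicates 1 to 5 had 2.38, 1.58, 2.04, 2.28 and 3.31, against 0.67, 0.63, -0.13, -0.41 and -0.08 in old normal serum. In young dwarf serum the ratios were 2.28, 3.48, 3.77, 3.75 and 3.18, against -0.74, 2.11, 1.99, -0.40 and 2.61 in young normal serum. Every old dwarf library exceeded every old normal library. In young mice the groups overlapped at 1 point, since young dwarf replicate 1 lay below young normal replicate 5.

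As a share of the reads of both strands, the 3p strand made up 16.5 ± 5.71% in old dwarf and 47.6 ± 8.58% in old normal serum (SD, n = 5 each). It made up 9.29 ± 4.08% in young dwarf and 34.3 ± 23.5% in young normal serum. Single libraries ran from 6.25% in young dwarf replicate 4 (8 of 128 reads, exact Clopper-Pearson 95% interval 2.74 to 11.9%) to 62.7% in young normal replicate 1 (96 of 153 reads, 54.6 to 70.4%). Young normal replicates 1 and 4 had more 3p than 5p reads, as did old normal replicates 3, 4 and 5. In the other 3 young normal libraries the 3p share was 13.8 to 19.7%, and in all dwarf libraries it was 24.4% or less.

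**Figure D2:**
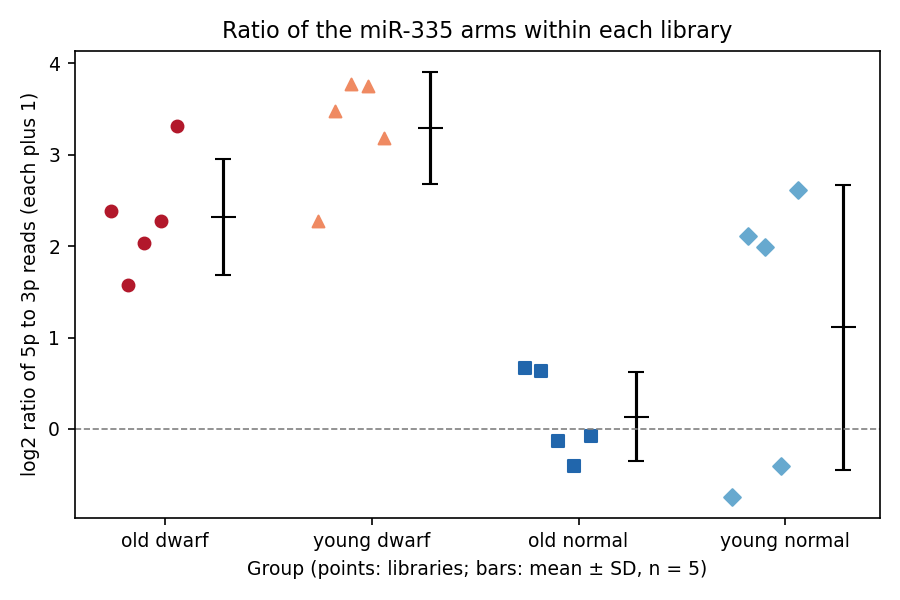
Log2 ratio of miR-335-5p to miR-335-3p reads, each plus 1, in each of 20 libraries, with points for libraries and bars for the group mean ± SD (n = 5). The ratio averages 2.32 in old dwarf and 0.14 in old normal serum, and 3.29 in young dwarf and 1.11 in young normal serum, where libraries lie in a high set of 3 and a low set of 2.

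The mean log2 ratio differed between dwarf and normal serum by 2.18 at both ages, a 4.54-fold difference in old and a 4.52-fold difference in young mice. Leaving out each library in turn gave 1.94 to 2.37 in old and 1.71 to 2.55 in young mice. The 3p strand enters this ratio and was chosen on the same contrast, so no test is given. The same ratio was computed for all 82 hairpins whose 5p and 3p strands were both tested. MiR-335 had the highest difference of the 82 at both ages, a rank favoured by its choice as low in dwarf serum. Next came miR-34c, named after its values were seen, at both ages, with 1.98 in old and 0.89 in young mice, and the medians over the hairpins were 0.29 and 0.09. In old mice 8 of the 82 hairpins (9.76%) were higher in dwarf than in normal serum with no overlap, miR-335 among them.

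**Figure D3:**
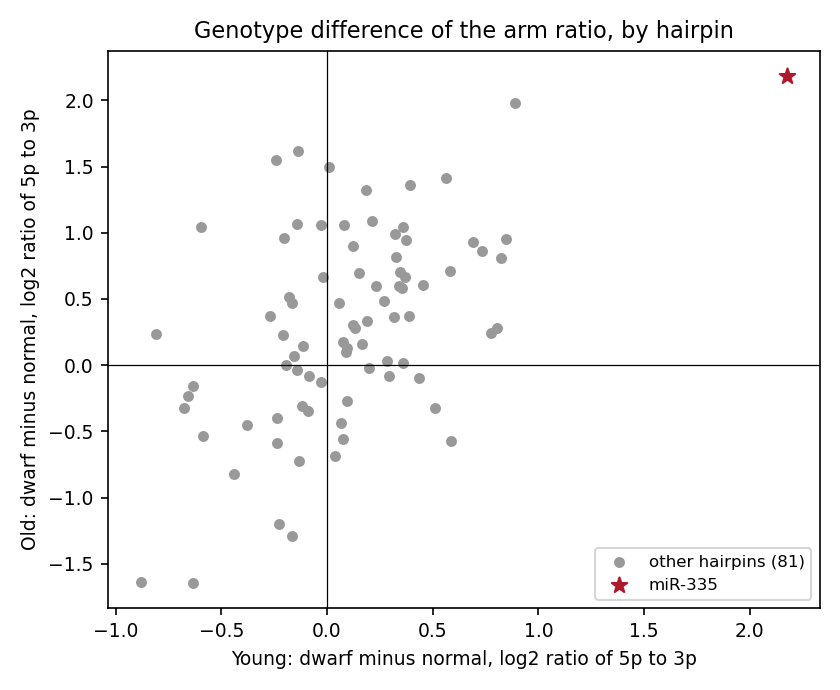
Dwarf minus normal difference of the mean log2 ratio of 5p to 3p reads in young (x axis) and old mice (y axis) for 82 hairpins with both strands tested, 1 point per hairpin. MiR-335 (star) lies at 2.18 on both axes, and no other of the 81 hairpins exceeds 0.89 in young or 1.98 in old mice. Its choice as low in dwarf serum favours this place.

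Age was not used to pick the strands and was tested with the edgeR quasi-likelihood test, adjusted over all 360 names. MiR-335-5p was lower on average in old than in young mice of both genotypes, but neither difference passed an adjusted p of 0.05. In dwarf mice, 36 CPM in old stood against 64.4 CPM in young serum (log2 -0.84 ± 0.38 SE, 95% interval -1.63 to -0.05, edgeR p 0.0388, adjusted p 0.997). The old and young dwarf libraries overlapped between 29.4 and 50.1 CPM. In normal mice, 21.4 CPM in old stood against 39.9 CPM in young serum (log2 -0.90 ± 0.38, interval -1.70 to -0.10, edgeR p 0.0296, adjusted p 0.0943). All 5 old normal libraries lay at 26.9 CPM or less, while 4 of 5 young normal libraries lay above that value. In these age comparisons 2 names (0.556%) passed in dwarf and 56 names (15.6%) in normal mice. With library totals in place of TMM factors the normal difference of miR-335-5p passed (log2 -1.48, adjusted p 0.0469), and there the median of all names also moved, to -0.42.

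MiR-335-3p showed a mean log2 age difference near 0 in both genotypes. It was 0.13 ± 0.46 in dwarf mice (old minus young, 95% interval -0.83 to 1.09, edgeR adjusted p 0.997) and -0.02 ± 0.43 in normal mice (-0.91 to 0.86, adjusted p 0.98). These intervals leave room for a change of about 2-fold either way, and in dwarf mice for a rise slightly above 2-fold. Without young normal replicate 1, the library with the highest 3p level, the normal difference was 0.49 (adjusted p 0.337). The age difference in dwarf minus that in normal mice was 0.06 ± 0.53 for the 5p and 0.15 ± 0.62 for the 3p strand (log2 ± SE), not tested because the same contrasts chose the pair.

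The ratio of the strands was lower in old than in young serum by a similar amount in both genotypes, without passing the test. It averaged 2.32 in old and 3.29 in young dwarf serum, a difference of -0.97 (2-sided exact permutation test, p 0.0556, adjusted over the 2 age comparisons 0.111). In normal serum it averaged 0.14 in old and 1.11 in young mice, a difference of -0.98 (exact p 0.206, adjusted p 0.206). With 5 against 5 libraries the smallest possible p is 0.00794. Young dwarf replicate 1 had the lowest ratio of its group, and without it the dwarf difference was -1.22 (exact test, adjusted p 0.0476). With each of the 10 dwarf libraries left out in turn, the exact test gave an adjusted p of 0.0476 to 0.19. In 9 of the 10 it stayed above 0.05.

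The 5p and 3p levels did not go together from library to library. Over the 20 libraries their log2 CPM had a Pearson r of -0.39 and a Spearman rho of -0.33. After group means were removed, r was -0.03 and rho -0.02 (permutation p 0.915 and 0.925, adjusted p 0.925 for both). Without the 2 libraries farthest from the median 5p level, young dwarf replicate 1 and old dwarf replicate 3, r was -0.13 (permutation p 0.592) over 18 libraries.

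**Figure D4:**
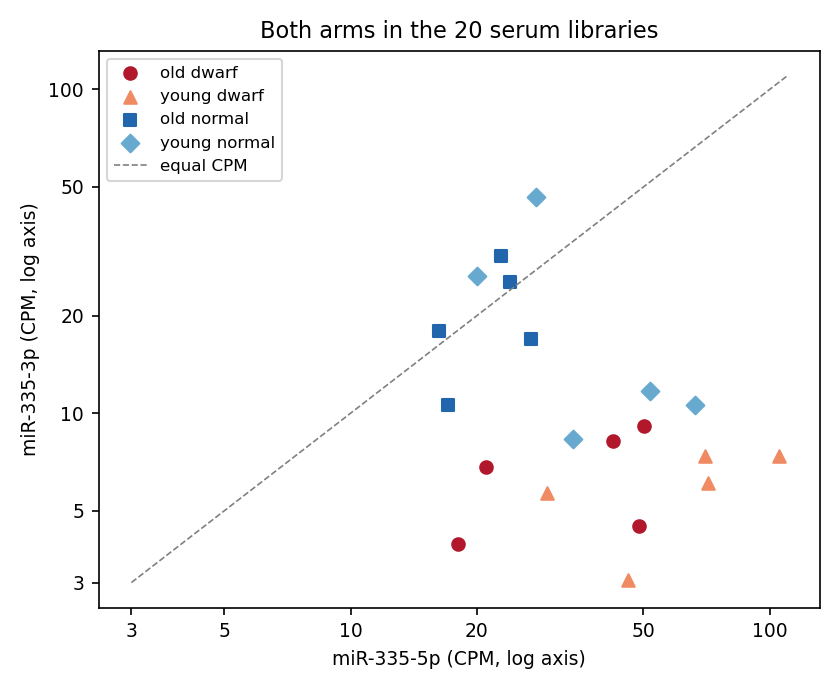
MiR-335-5p (x axis) and miR-335-3p (y axis) in CPM on log axes in the 20 libraries, coloured by group, with a dashed line at equal levels. All dwarf libraries lie below the line, while 3 of 5 old normal libraries and young normal replicates 1 and 4 lie above it.

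The names whose levels were most like those of the strands also differed. For miR-335-5p these were miR-487b-3p, miR-199a-3p, miR-300-3p, miR-376c-3p and miR-337-5p, with a Pearson r of 0.91 to 0.92 over the 20 libraries and 0.89 to 0.91 after removal of group means. Of these, miR-487b-3p, miR-337-5p and miR-376c-3p averaged only 1.98, 2.43 and 5.16 CPM over the 20 libraries, so their r rests on few reads. MiR-300-3p averaged 44.7 CPM. MiR-199a-3p, a miRNA of mesenchymal cells that shares its reads with miR-199b-3p, averaged 901 CPM in old dwarf, 1440 in young dwarf, 208 in old normal and 1030 in young normal serum. The other 4 are encoded in the Dlk1-Dio3 region, an imprinted cluster whose miRNAs are expressed from the maternal chromosome, unlike Mest. Least like miR-335-5p was red-cell miR-486a-5p, with r -0.96 (-0.93 within groups). Other red-cell names did not share this relation, with r 0.42 for miR-451a and -0.19 for miR-144-3p, while miR-486a-3p, from the same hairpin as miR-486a-5p, had r -0.80. A haemolysis index (red-cell miR-451a over miR-23a-3p, in log2 units) had r 0.38 with miR-335-5p (-0.01 within groups), and the log2 library total had r -0.56 (-0.65).

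These correlations describe the 20 libraries and carry no test, since the names share library totals and miR-486a-5p alone holds a large part of each library. The libraries with little miR-335-5p also held little of the Dlk1-Dio3 miRNAs. In the summed level of 29 tested Dlk1-Dio3 names, old dwarf replicates 2 and 3 had 439 and 318 CPM, against 2500 CPM or more in the other old dwarf libraries. Young dwarf replicate 1 had 578 CPM, and the other 4 young dwarf libraries had 2380 CPM or more. Old normal libraries had 94.6 to 185 CPM. Young normal replicates 1 and 4 had 172 and 241 CPM, against 1350 CPM or more in the other 3. The part of this shared pattern in the levels of miR-335-5p was not tested.

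For miR-335-3p the most similar names were miR-205-5p, a miRNA of stratified epithelia, miR-669a-5p, miR-669a-3p, miR-28a-3p and miR-151-5p. Their r was 0.71 to 0.77 over the 20 libraries and 0.43 to 0.55 within groups, lower than for the 5p strand. MiR-669a-5p and miR-669a-3p, from the imprinted Sfmbt2 cluster, share their reads with miR-669p-5p and miR-669o-3p. MiR-205-5p averaged 74 ± 22 CPM in old dwarf serum, against 170 ± 65.9 CPM in old normal serum, and 94.1 ± 49.2 CPM in young dwarf serum, against 264 ± 116 CPM in young normal serum. Young normal replicate 1, highest in miR-335-3p, was also highest in miR-205-5p at 426 CPM. MiR-335-3p had r -0.49 with the haemolysis index (-0.35 within groups) and 0.19 with the log2 library total (-0.08).

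**Figure D5:**
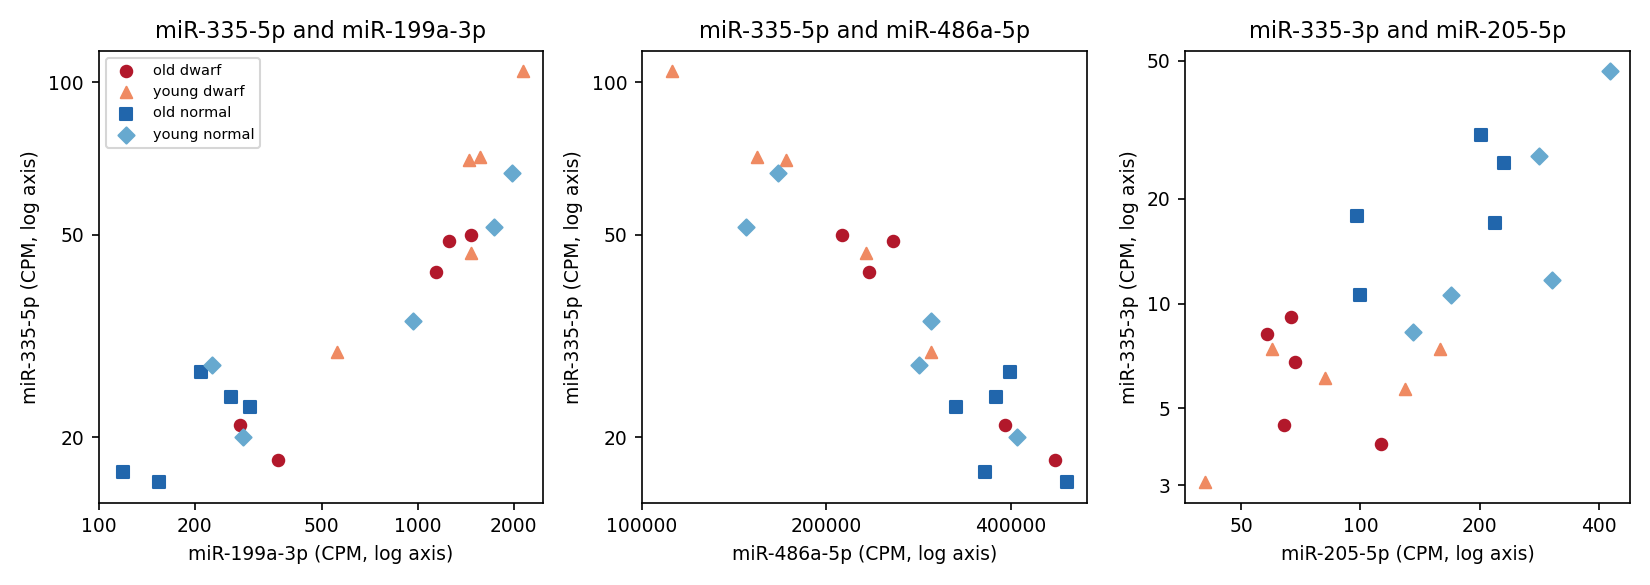
Levels in the 20 libraries, in CPM on log axes, of miR-335-5p against miR-199a-3p (left, r 0.92) and miR-486a-5p (middle, r -0.96), and of miR-335-3p against miR-205-5p (right, r 0.77). Points are libraries coloured by group, and r is Pearson's r of log2 CPM.

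The haemolysis index was 5.38 ± 0.44 in old dwarf, 5.40 ± 0.43 in young dwarf, 4.30 ± 0.70 in old normal and 5.45 ± 0.61 in young normal serum (SD, n = 5 each). With the index in the fit, the dwarf minus normal difference of miR-335-3p was -1.10 ± 0.54 in old mice and -1.74 ± 0.43 in young mice (log2 ± SE). In the same fit miR-335-5p differed by 0.79 ± 0.53 and 0.69 ± 0.38.

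Other miRNAs are encoded near Mir335. Within 2 Mb on chromosome 6 lie Mir29a and Mir29b-1 (321263 and 321626 bases away), the cluster of Mir183, Mir96 and Mir182 (571561 to 575306 bases away) and Mir129-1. Of their 11 mature names 5 were tested. In the edgeR age comparisons 2 of all 360 names (0.556%) passed in dwarf and 56 (15.6%) in normal mice. Of the 5 neighbours 0 passed (edgeR, adjusted p 0.997 in dwarf and 0.0751 or higher in normal mice). At an unadjusted edgeR p under 0.05 there were 0 in dwarf mice, against 14 of all 360 names. In normal mice there was 1, against 138 of 360 names. DESeq2 called 0 in either, with 1 neighbour given no adjusted p. Over all names it called 2 of 356 (0.562%) in dwarf and 117 of 356 (32.9%) in normal mice. MiR-29a-3p, a repressor of collagen genes, stood at 3120 ± 548 CPM in old dwarf, 3670 ± 847 in young dwarf, 3620 ± 322 in old normal and 3460 ± 622 in young normal serum. MiR-182-5p, of sensory cells and lymphocytes, averaged 304 ± 78.9, 291 ± 61.7, 535 ± 715 and 314 ± 330 CPM in the same order. MiR-29b-3p, which a second hairpin also encodes, averaged 20.1, 20.7, 29.4 and 17.4 CPM. MiR-183-5p, of the same cluster as miR-182-5p, averaged 20.3 ± 8.31, 17.6 ± 2.02, 49 ± 66.6 and 32.3 ± 39.3 CPM, with an SD above the mean in both normal groups. Its log2 difference, dwarf minus normal, was -1.28 ± 0.68 (SE) in old and -0.87 ± 0.67 in young mice, the same sign as for miR-335-3p. Its r with miR-335-3p was 0.06. Over the 5 neighbours the median dwarf minus normal difference was -0.54 in old mice, with 1 of 5 above 0, and -0.02 in young mice, with 2 of 5 above 0. No neighbour had a correlation with miR-335-3p beyond -0.26 or with miR-335-5p above 0.55.

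Among miRNAs of other imprinted loci, the Dlk1-Dio3 names had a median log2 age difference of -0.41 in dwarf mice. There 0 of 29 passed the edgeR test (against 2 of 360 names, 0.556%) and 0 had an unadjusted p under 0.05 (against 14 of 360). DESeq2 called 0 (against 2 of 356 names, 0.562%). In normal mice the median was -2.80 and 21 of 29 fell (edgeR adjusted p under 0.05, against 38 of all 360 names, 10.6%), and 27 passed in DESeq2 (against 117 of 356 names, 32.9%). The log2 age difference of miR-335-5p was -0.84 in dwarf and -0.90 in normal mice. Of 8 names from the Igf2, H19 and Gnas loci, 2 were tested, both from the Gnas region. MiR-296-5p averaged 5.81 CPM in old dwarf, 10.3 in young dwarf, 11.9 in old normal and 21.3 in young normal serum, with no age difference past the threshold (edgeR adjusted p 0.997 in dwarf and 0.118 in normal mice). MiR-298-5p averaged 3.45, 11.6, 14 and 14.7 CPM in the same order (edgeR adjusted p 0.567 and 0.97). At an unadjusted edgeR p under 0.05 there was 1 of the 2 in dwarf mice, against 14 of 360 names. In normal mice there was also 1, against 138 of 360 names. DESeq2 called 0 of the 2 in dwarf mice (against 2 of 356 names, 0.562%). In normal mice it called 1 (against 117 of 356 names, 32.9%).

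Of 17 names chosen as miRNAs of mesenchymal and adipose cells, where Mest and miR-335 are known to be expressed, 15 were tested. In dwarf mice 0 passed with age (edgeR, median log2 -0.28), beside 2 of 360 names (0.556%). In normal mice 4 fell and 0 rose (median -1.11, against 0.00 for all names). Those 4 of 15 stand beside 38 of all 360 names (10.6%) that fell. MiR-199a-3p and miR-199b-3p, which share their reads, are separate names of this list. A call for these reads, here and in DESeq2, therefore enters the count for each name. In dwarf mice 0 of the 15 had an unadjusted edgeR p under 0.05, beside 14 of 360 names. DESeq2 called 0 there, beside 2 of 356 names (0.562%). In normal mice DESeq2 called 7, beside 117 of 356 names (32.9%). MiR-199a-3p fell by 2.31 ± 0.58 on the log2 scale in old against young normal serum (edgeR adjusted p 0.0125). MiR-143-3p, of smooth muscle and fat, averaged 1340 CPM in old and 2900 CPM in young normal serum (log2 -1.11 ± 0.46, edgeR adjusted p 0.084). Its r with miR-335-5p was 0.84 and with miR-335-3p -0.49. MiR-378a-3p, encoded in the metabolic regulator gene Ppargc1b, had r 0.72 and -0.56. MiR-221-3p, at 1480 to 1860 CPM on average in all groups, had r -0.20 and -0.02.

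Markers of blood cells and liver give the setting of these levels. The summed level of 5 red-cell names was 245000 to 499000 CPM in old dwarf, 154000 to 326000 in young dwarf, 345000 to 519000 in old normal and 183000 to 449000 in young normal serum. Most of this sum was miR-486a-5p, whose log2 age difference was 0.59 in normal mice (edgeR adjusted p 0.147). The other 4 red-cell names were below 0 in that comparison (median of all 5 -0.69). Of them 1, miR-451a, fell (log2 -0.99, edgeR adjusted p 0.0198), beside 38 of all 360 names (10.6%) that fell. The summed level of 5 platelet and myeloid names was 20000 to 57500, 18200 to 45400, 53400 to 75000 and 20000 to 50500 CPM in the same order. Most of this sum was miR-191-5p and miR-142a-5p, at 40200 and 21900 CPM on average in old normal serum. Their log2 age differences in normal mice were 1.10 ± 0.37 and 0.57 ± 0.31 (SE). Those of miR-223-3p and miR-142a-3p were 0.29 ± 0.33 and -0.21 ± 0.20. MiR-142a-5p of leukocytes and miR-191-5p had r -0.90 and -0.84 with miR-335-5p, and 0.41 and 0.54 with miR-335-3p. MiR-223-3p and miR-142a-3p, the latter from the same hairpin as miR-142a-5p, had weaker r with miR-335-5p, -0.56 and -0.36. Their r with miR-335-3p was 0.63 and 0.47. Lymphocyte miR-150-5p had r -0.62 and 0.46, and liver miR-122-5p 0.33 and -0.20. The part of these cell types in the miR-335 levels was not tested.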

How the data were processed

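Serum small RNA of 20 libraries was analysed. Per the labels' protocols, extraction used the miRNeasy kit and library preparation a TruSeq kit for small RNA. The submitters' processing notes list Bowtie 0.12.8, bedtools, edgeR and GRCm38 (mm10) but give none of them a role. The deposited read counts, 1 column per library, were tested. The authors' RPM values matched count over column sum within 0.005 and were not used further. The deposited miRDeep2 report, with a score per hairpin over all libraries, was used only for the pooled reads of the hairpin. No sample column was left unused (0 columns).

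The table has a row per name and precursor (2241 rows), and the row with the highest total was kept. Each miR-335 strand has 1 row. Counts were tested with edgeR 4.0.16 (limma 3.58.1, R 4.3.3), with TMM factors, its default filter (minimum count 10) and 1 coefficient for each of 4 groups. Benjamini-Hochberg adjustment ran over 360 names, which kept at least 99.9% of reads. The fit was also run on simulated counts, drawn independently with the means of the data and the dispersions of the fit. Such counts lack patterns shared between names, so this run cannot show how the fit handles them. Standard errors were computed as the absolute log2 difference divided by √F. Log2 CPM used a prior count of 2. Strand ratios were compared with exact permutation tests over all 252 arrangements (numpy 2.4.6), and the correlation with 100000 permutations. Exact Poisson and Clopper-Pearson intervals were computed with scipy 1.17.1.

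The members, lists and tests were chosen with earlier results of these data known. Named beyond the pair were the 5 most similar names of each strand, neighbours within 2 Mb, other imprinted miRNAs and up to 4 members of each list by mean CPM. MiR-34c, and the place of miR-486a-5p as least similar to miR-335-5p, were added after the values were seen. RefSeq sequences matched 1623 of 1915 names. Alternatives were other scaling factors, filters, DESeq2 1.42.0, smaller fits, other row choices, a replicate block, the haemolysis index and each library left out. Replicate numbers are shared by the groups but do not mark a shared source in the labels.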

Additional observations from a re-analysis of the deposited data

How the results depend on the processing

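Dwarf minus normal differences moved by less than the within-group SD in all 11 alternative fits. They ran from -1.70 to -1.10 (old) and -1.82 to -1.44 (young) for miR-335-3p, and from 0.73 to 1.13 and 0.67 to 0.87 for miR-335-5p. With 1 library left out they were -1.79 to -1.46, -2.0 to -1.28, 0.59 to 0.93 and 0.41 to 0.95. Age differences of miR-335-5p were -1.22 to -0.72 over the alternatives in dwarf mice, and -1.01 to -0.60 with a library left out. In normal mice they were -1.48 to -0.78, with an edgeR adjusted p under 0.05 only with library totals (-1.48, 0.0469), and -1.07 to -0.65 with a library left out. The near-zero age difference of miR-335-3p changed sign in dwarf mice with library totals (-0.26), and was -0.03 to 0.27 with a library left out. In normal mice it changed sign with upper-quartile factors (0.08) and with the replicate block (0.16), and was -0.27 to 0.49 with a library left out. The difference of the age effects with a library left out was -0.18 to 0.31 for the 5p and -0.35 to 0.40 for the 3p strand. The strand ratio changed with age by -1.22 to -0.79 in dwarf and -1.44 to -0.60 in normal mice with a library left out, and differed between dwarf and normal by 1.94 to 2.37 in old and 1.71 to 2.55 in young mice. With 0.5 added to the reads in place of 1, it differed between dwarf and normal by 2.23 in old and 2.21 in young mice. With 5 added, the differences were 1.90 and 1.96.

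The 2 names called with age in dwarf mice came to 0 with library totals, only the groups compared or the replicate block, 1 with a mean of at least 5 CPM or summed precursor rows, and 0 to 2 with a library left out (0 without each young dwarf replicate or old dwarf replicate 1, 1 without old dwarf replicate 3 or 4). The 56 in normal mice came to 106 with library totals, 117 in DESeq2, 34 with only the groups compared and 1 with the haemolysis index as covariate, and 29 to 123 with a library left out (29, 37, 37 and 123 without young normal replicate 5, young normal replicate 3, old normal replicate 1 and young normal replicate 1). Library totals shifted the median of all names to -0.38 (dwarf) and -0.42 (normal) in the age comparisons, and upper-quartile factors to 0.13 and 0.16. In the dwarf minus normal comparisons library totals shifted it to 0.23 (old) and 0.18 (young). The cause was not tested. With the replicate block the age differences of miR-335-5p were -0.79 in dwarf and -0.83 in normal mice (edgeR adjusted p 0.999 and 0.139), and 38 names passed in normal mice. Same-numbered libraries had correlations of deviations of -0.68 to 0.38 (dwarf) and -0.33 to 0.21 (normal) between ages, and of -0.1 to 0.27 (old) and -0.22 to 0.81 (young, 4 of 5 at 0.25 or more) between genotypes. In none of these comparisons were all 5 above 0.1, and the libraries were taken as unpaired. Depth limits the 3p strand in dwarf serum, where a library held 7 to 20 reads.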
